A study of Mus musculus with 6 samples.

Results

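The extracellular matrix and integrin genes described here are 50 genes listed by name and function. The list uses no measured value, but it was drawn up with earlier results of these arrays known. They encode laminins, collagens, proteoglycans, matricellular proteins, integrins, matrix proteases and the inhibitors of those proteases. They are 50 named genes beside the 18193 genes that single-symbol probe sets of the array represent. A gene was measured where the platform annotation gives a probe set its symbol alone, which held for 49 of the 50, and Mmp15, a membrane-type metalloproteinase, was not analysed here. The 49 genes have 120 probe sets, and each gene is represented by the brightest of its own unless another is named.

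The matrix is the meshwork of secreted proteins and sugars around cells. Laminins, type IV collagens, nidogens and heparan sulphate proteoglycans form basement membranes, tenascins and chondroitin sulphate proteoglycans fill the looser matrix of the brain, and metalloproteinases cut these proteins while the Timps inhibit them. Integrins are receptors made of an alpha and a beta chain, which bind the matrix outside the cell and the actin cytoskeleton inside it. In the subventricular zone, the germinal layer along the lateral ventricles, neural stem cells contact laminin-rich matrix and vessels through such receptors, and tenascin C and proteoglycans are part of the niche.

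The study asked how trisomy alters gene expression in adult neural stem cells and progenitors. Neurospheres, floating clusters grown from single dissociated cells, were raised for 7 days from tissue of the ventricle walls, which holds this zone, of female mice at postnatal day 84, and their RNA was hybridised to Affymetrix mouse genome arrays after 2 cycles of labelling. There were 3 arrays of Ts1Cje cultures and 3 of disomic littermates on the C57BL/6 strain, labelled as biological replicates, and the labels do not say whether a culture came from 1 mouse. Ts1Cje, a mouse model of Down syndrome, carries the end of chromosome 16 beyond Sod1 in 3 copies, the extra piece being joined to chromosome 12 with Sod1 itself inactivated on it. The disomic cultures carried the segment in the normal number of copies, without the translocated one. The cultures lack the vessels, ependyma and blood supply of the living niche.

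The authors deposited 1 log2 signal per probe set and array, made with GCRMA. Here A is the mean of that signal over the 6 arrays, M is the mean of the Ts1Cje arrays minus the mean of the disomic arrays, and a gene with A above 5 is called expressed. Array medians lay between 2.69 and 2.71, and correlations between arrays between 0.991 and 0.997. The 44 expressed trisomic genes, by their median deviation from their own mean, stood at 0.18 to 0.27 on the Ts1Cje arrays and at -0.27 to -0.21 on the disomic arrays, which places every array in its labelled genotype. The signal of the actin control probe sets at the 3′ end exceeded that at the 5′ end by 1.67 ± 0.15 (SD, n = 3) on disomic and by 2.02 ± 0.21 (SD, n = 3) on Ts1Cje arrays, and all 3 Ts1Cje values were above all 3 disomic values. The exact permutation test of 3 against 3 arrays then gives p = 0.1, two-sided, the smallest it can give. The same order held for Gapdh (2.18 ± 0.10 against 2.34 ± 0.09) and for the 18S rRNA control (11.08 ± 0.39 against 11.75 ± 0.32), so measures of RNA quality or labelling moved with genotype, and their part in the values below was not tested.

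Of the 49 measured genes, 32 were expressed and 17 were not, while 49.2% of all genes were expressed. Both shares read the brightest probe set of a gene, and fewer of the 49 were expressed by the mean of all its probe sets. The expressed gene nearest the limit was Nid1 with A = 5.08, and the nearest below it was Col4a2 with A = 4.26. Expression was spread over all role groups. It covered 3 of 5 glycoproteins, 3 of 7 laminins, 3 of 4 basement membrane linkers, 4 of 6 collagens, 3 of 4 chondroitin sulphate proteoglycans and link proteins, 5 of 6 glypicans and syndecans, 3 of 7 integrin alpha chains, 2 of 3 integrin beta chains, 3 of 4 Timps and all 3 measured proteases. Signals of different probe sets were ranked only to choose which probe set and which genes to show in full, and no difference in level between genes is reported, since each probe set has its own affinity.

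**Figure D1:**
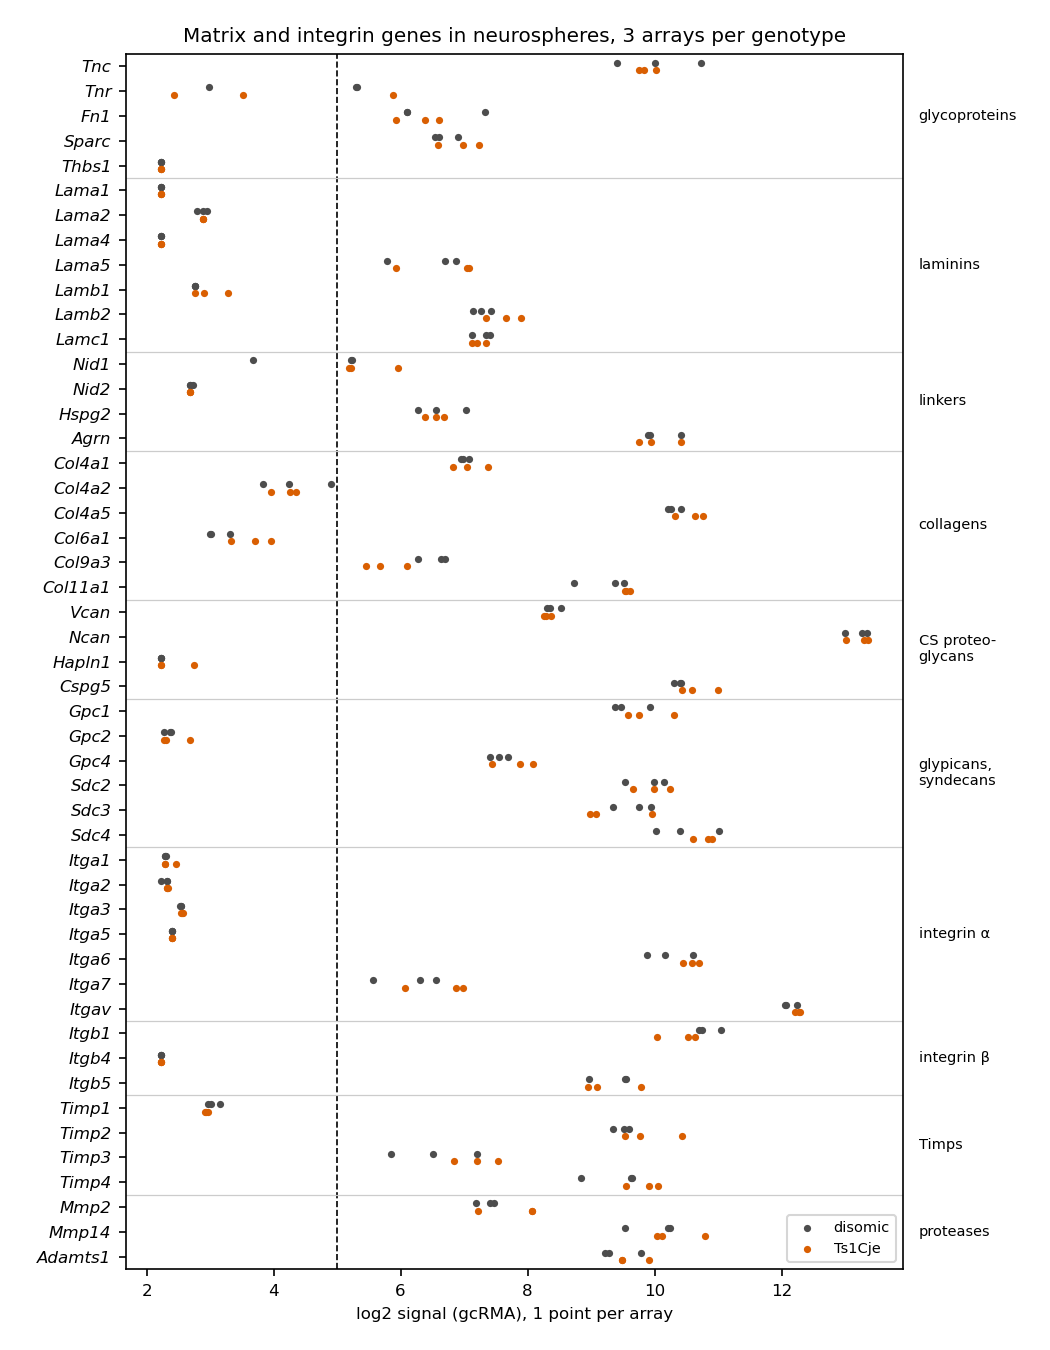
Log2 signal (horizontal axis) of the 49 measured matrix and integrin genes by role group, 1 point per array, with 3 disomic arrays in grey and 3 Ts1Cje arrays in orange. The dashed line marks a log2 signal of 5, above which 32 genes have their mean, and for most genes the points of both genotypes are mixed.

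No expressed matrix or integrin gene passed the study's limit, a moderated t of 4 in limma, in either direction. Over all 8947 expressed genes, 1.82% passed it, 1.13% upwards and 0.693% downwards. By the same fit, 1 of the 32 had an unadjusted p under 0.05, against 6.61% of all expressed genes, and the limma adjusted p was 1 for all 32. Over all 45037 probe sets, 1 (0.00222%) had an adjusted p under 0.05 and it belonged to none of these genes. The genotypes did not overlap for 4 of the 32 genes (12.5%), where 11.3% of all expressed genes did not overlap, so that this share was near the background. Col11a1 and Cspg5 were higher on every Ts1Cje array, as were 6.12% of all expressed genes. Col9a3 and Itgb1 were lower on every Ts1Cje array, as were 5.16%.

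More of the values of M lay above 0 than below it. An M above 0 was found for 22 of the 32 genes (68.75%), against 53.9% of all expressed genes, and the median M was 0.24 against 0.02. The matrix and integrin genes also varied more between arrays of 1 genotype, with a median within-group SD of 0.30 against 0.21 and a median size of M, whatever its sign, of 0.28 against 0.14. By their median deviation over the 32 genes, the arrays overlapped between the genotypes, with 0.05, -0.20 and -0.01 on disomic arrays 1, 2 and 3 and -0.06, 0.08 and 0.08 on Ts1Cje arrays 1, 2 and 3. Disomic array 2 was the lowest of the 6 arrays for 13 genes, and Ts1Cje array 3 was the highest for 11. With 1 array left out at a time, the median M lay between 0.15 and 0.22, and over all 49 measured genes it was 0.075. Single arrays weighed heavily on single genes, since M turned sign or moved by over 1.5 times for 30 of the 32 when 1 array was left out, Col9a3 and Itgav being the exceptions. Because whole cultures were measured, a higher share of cells that express a gene and more RNA per cell cannot be told apart.

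**Figure D2:**
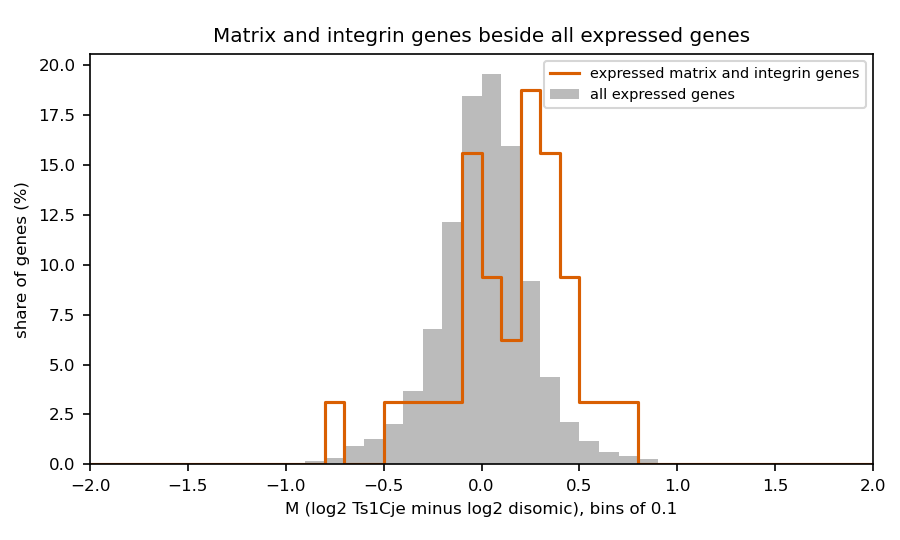
Share of genes in percent (vertical axis) by M in bins of 0.1 (horizontal axis, log2), for all 8947 expressed genes in grey and the 32 expressed matrix and integrin genes in orange, with values beyond 2 in either direction counted in the end bins. The matrix and integrin genes are more widely spread, with a median of 0.24 against 0.02.

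Col9a3 encodes a chain of type IX collagen, a fibril-associated collagen, and was the only 1 of the 32 with an unadjusted p under 0.05 on its brightest probe set. Its probe set 1460734_at read 6.64, 6.28 and 6.69 on the disomic arrays and 5.45, 6.11 and 5.67 on the Ts1Cje arrays. Every Ts1Cje array was below every disomic array, by the least on Ts1Cje array 2. The difference was M = -0.79 with a standard error of 0.22, a ratio of 0.577, and the limma 95% confidence interval ran from -1.40 to -0.19 (t = -3.53, unadjusted p = 0.0212, adjusted p = 1). The other expressed probe set, 1460693_a_at, gave M = -0.81, with 5.99, 7.10 and 6.26 on disomic and 5.62, 5.57 and 5.75 on Ts1Cje arrays, again without overlap. The mean of both probe sets passed a moderated t of -4 with M = -0.80 (limma, unadjusted p = 0.00309), and so did the brightest alone without Ts1Cje array 2, with M = -0.98. Of all expressed genes, 1.79% passed in the former fit and 3.01% in the latter. Its adjusted p stayed above 0.05 under every setting tried.

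Col11a1 encodes a chain of type XI collagen, a partner of type IX collagen in cartilage fibrils. It read 8.73, 9.52 and 9.38 on disomic and 9.61, 9.54 and 9.55 on Ts1Cje arrays. The groups did not overlap, but disomic arrays 2 and 3 lay close to the Ts1Cje arrays and disomic array 1 was far below them. M was 0.36 with a standard error of 0.23 (limma, unadjusted p = 0.197), 0.12 without disomic array 1, and 0.26 on the other probe set, where the groups overlapped. Thus the fibrillar chain Col11a1 and the fibril-associated chain Col9a3 lay on opposite sides of 0.

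Type IV collagen is the network-forming collagen of basement membranes. Col4a5, an X-linked chain, read 10.20, 10.42 and 10.26 on disomic and 10.63, 10.32 and 10.77 on Ts1Cje arrays. Ts1Cje array 2 fell within the disomic range, and M was 0.28 with a standard error of 0.14. The other probe set of Col4a5 gave M = -0.04 with a standard error of 0.07, the widest disagreement in sign among the genes with several expressed probe sets, and without Ts1Cje array 2 the brightest passed a moderated t of 4 with M = 0.40, as did 3.01% of all expressed genes in that fit. Col4a1 had M = 0.07 with a standard error of 0.16.

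Col4a1 and Col4a2, whose products assemble together, fell on different sides of the limit by their brightest probe sets, with A = 7.05 and A = 4.26. The other probe set of Col4a1, 1426348_at, had A = 4.65, below the limit as well. The split thus depends on the probe set read and shows no difference in level between the 2 genes. The genes lie head to head on chromosome 8, and in RefSeq (GRCm38.p6) their start sites are 21 bases apart. Col4a1 starts at 11312826 on the minus strand and Col4a2 at 11312805 on the plus strand, so their annotated 5′ ends overlap. Most of the Col4a2 window shown here thus lies inside the annotated Col4a1 gene. The window from 250 bases before to 50 bases after each start therefore overlaps that of the other gene by 78 bases. The Col4a2 window, at chr8:11312555-11312854 on the plus strand, is shown because it holds the shared interval. It has 33 CpG dinucleotides, 3 matches to GGGCGG on either strand and 1 to CCAAT, all in capitals.
Col4a2: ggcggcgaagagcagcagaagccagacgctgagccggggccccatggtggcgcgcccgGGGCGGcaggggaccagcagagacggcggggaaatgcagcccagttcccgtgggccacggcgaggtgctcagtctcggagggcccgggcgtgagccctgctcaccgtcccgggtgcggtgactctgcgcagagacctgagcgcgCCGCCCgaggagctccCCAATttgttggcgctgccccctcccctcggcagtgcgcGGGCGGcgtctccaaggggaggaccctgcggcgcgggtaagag

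Col6a1, a chain of the beaded-filament collagen VI whose human counterpart lies on chromosome 21, is on mouse chromosome 10 and was not expressed (A = 3.39). Its values were 3.31, 3.00 and 3.02 on disomic and 3.32, 3.71 and 3.96 on Ts1Cje arrays, without overlap but below the limit on every array. No matrix or integrin gene of the 50 is trisomic in Ts1Cje. The genes lie on 17 chromosomes, and the 2 on chromosome 16, Itgb5 and Adamts1, start before Sod1.

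**Figure D3:**
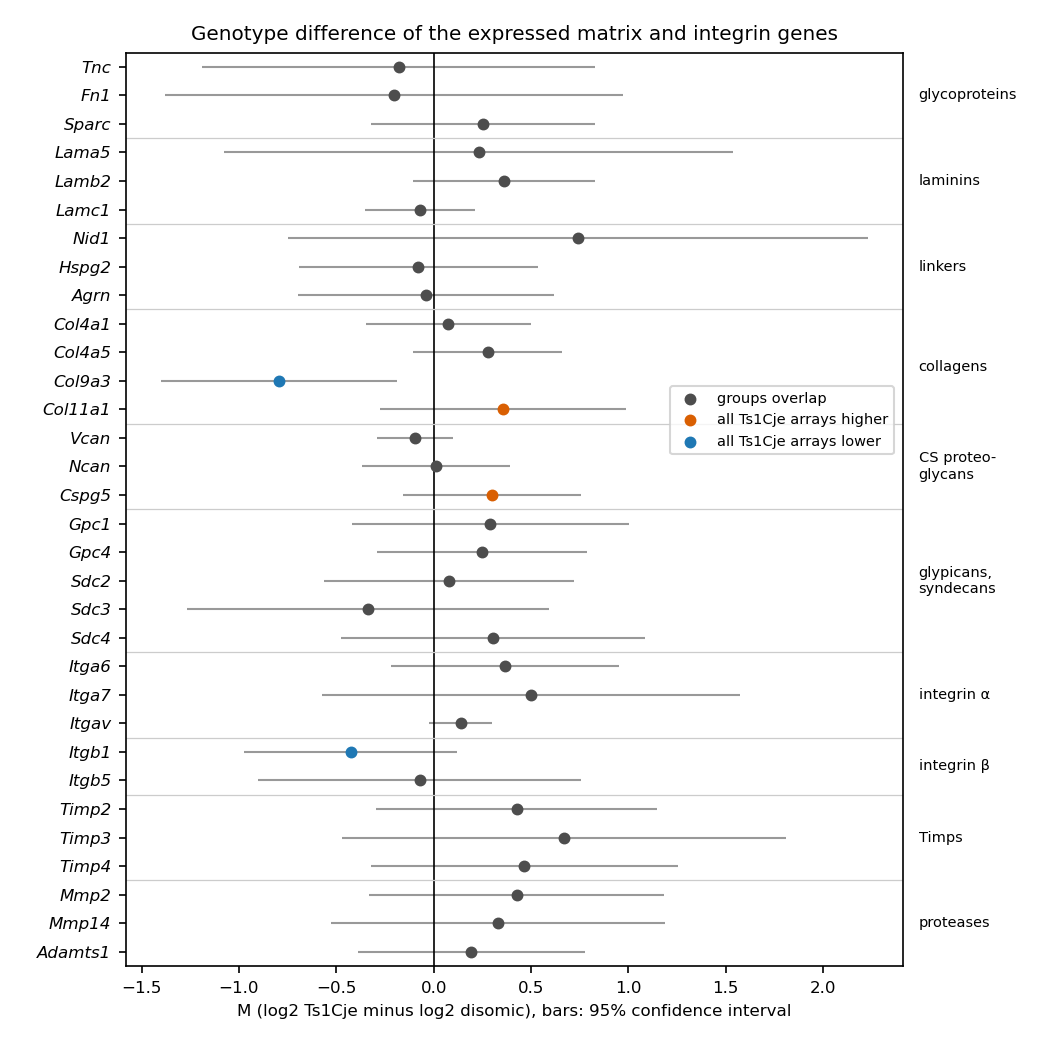
M (horizontal axis, log2 Ts1Cje minus log2 disomic) of the 32 expressed matrix and integrin genes by role group, with bars for the limma 95% confidence interval from 3 arrays per genotype. Col9a3 is the only gene whose bar stays clear of 0, and colours mark the 4 genes whose groups do not overlap.

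Among the secreted glycoproteins, Tnc encodes tenascin C, a large protein of the stem cell niche. It read 10.73, 9.41 and 10.00 on disomic and 10.02, 9.75 and 9.83 on Ts1Cje arrays. The disomic arrays alone spanned the Ts1Cje range, and M was -0.18 with a standard error of 0.37. A second probe set gave -0.29. Fn1, fibronectin, had M = -0.20 with a standard error of 0.44, and its sign, like that of Tnc, turned without disomic array 1. Tnr, tenascin R, and Thbs1, thrombospondin 1, were not expressed, with A = 4.23 and A = 2.23, the latter at the lowest value of the data set. Tnr varied widely within both genotypes, with 2.98, 5.31 and 5.29 on disomic and 3.51, 5.88 and 2.43 on Ts1Cje arrays, so that single arrays passed a log2 signal of 5.

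Sparc encodes a collagen-binding matricellular protein, and its probe sets disagreed in size. The brightest, 1416589_at, gave M = 0.26 with a standard error of 0.21 (t = 1.20). The second, 1448392_at, read 6.34, 6.62 and 6.61 on disomic and 7.04, 7.09 and 7.04 on Ts1Cje arrays. On this probe set the lowest Ts1Cje array exceeded the highest disomic array, and the Ts1Cje arrays were almost equal. Its M was 0.53 with a standard error of 0.09, which passed the limit (limma t = 5.98, unadjusted p = 0.00302, adjusted p = 1), and the mean of both probe sets also passed, with M = 0.39, in a fit where 1.79% of all expressed genes passed. Of all 14610 expressed single-symbol probe sets, 1.76% passed a moderated t of 4 in either direction and 1.01% upwards, and of the 57 of the matrix and integrin genes 2 did, this one and one of Sdc2, both upwards. The promoter window of Sparc, chr11:55420031-55420330 on the minus strand (RefSeq, GRCm38.p6), is shown as a contrast to that of Col4a2, with 4 CpG dinucleotides and no match to any of the 3 motifs searched, which were GGGCGG, the CCAAT box and the TATAAA box.
Sparc: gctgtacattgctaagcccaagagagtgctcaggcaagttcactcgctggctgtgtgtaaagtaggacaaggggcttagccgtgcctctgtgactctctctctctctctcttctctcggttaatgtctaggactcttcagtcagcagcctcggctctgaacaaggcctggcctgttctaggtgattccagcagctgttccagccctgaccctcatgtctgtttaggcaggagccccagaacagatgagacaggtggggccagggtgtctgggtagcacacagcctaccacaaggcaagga

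Laminins are trimers of an alpha, a beta and a gamma chain, and the expressed members comprised exactly 1 of each, Lama5, Lamb2 and Lamc1. Lamb2 read 7.27, 7.14 and 7.42 on disomic and 7.35, 7.66 and 7.90 on Ts1Cje arrays. Only Ts1Cje array 1 lay within the disomic range, and M was 0.36 with a standard error of 0.17. Lama5 had M = 0.23 with a standard error of 0.48, and -0.05 on its other probe set, and Lamc1 had M = -0.07 with a standard error of 0.11. The 4 remaining chains were not expressed, with A = 2.23 for Lama1 and Lama4, 2.88 for Lama2 and 2.87 for Lamb1.

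The proteins that link laminin with collagen and with the cell surface did not pass the limit either. Agrn, agrin, read 9.89, 9.94 and 10.41 on disomic and 9.76, 10.41 and 9.95 on Ts1Cje arrays, with M = -0.04 and a standard error of 0.24. The groups covered nearly the same range. Hspg2, perlecan, had M = -0.08 with a standard error of 0.23. Nid1, nidogen 1, had M = 0.74 with a standard error of 0.55, the highest M of the 32, but disomic array 3 read 3.68 against 5.22 and 5.24 on the other disomic arrays, and M was 0.22 without it. Nid2 was not expressed (A = 2.69).

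Chondroitin sulphate proteoglycans bind hyaluronan and tenascins in brain matrix. Ncan, neurocan, read 13.27, 13.01 and 13.34 on disomic and 13.01, 13.29 and 13.36 on Ts1Cje arrays. The groups overlapped almost wholly, and the interval of M = 0.01 ran from -0.37 to 0.39. Vcan, versican, had M = -0.10 with a standard error of 0.07, and the link protein gene Hapln1 was not expressed (A = 2.32). Cspg5, neuroglycan C, a transmembrane proteoglycan of neural cells, read 10.41, 10.30 and 10.41 on disomic and 10.43, 11.00 and 10.59 on Ts1Cje arrays. All Ts1Cje arrays were higher, Ts1Cje array 1 only just so. M was 0.30 with a standard error of 0.17 (limma, unadjusted p = 0.145), and 0.13 without Ts1Cje array 2.

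Glypicans and syndecans carry heparan sulphate on the cell surface and hold growth factors there. Sdc4 read 11.01, 10.40 and 10.03 on disomic and 10.84, 10.60 and 10.90 on Ts1Cje arrays. The Ts1Cje arrays all lay inside the disomic range, with M = 0.30 and a standard error of 0.29. Without disomic array 3, M was 0.078. Gpc1 and Gpc4 had M of 0.29 and 0.25, with standard errors of 0.26 and 0.20, and Gpc2 was not expressed (A = 2.38). M was 0.079 for Gpc1 without Ts1Cje array 2 and 0.11 for Gpc4 without Ts1Cje array 1. The other probe set of Gpc4, 1436514_at, gave M = 0.45 with a standard error of 0.19 and no overlap (limma, unadjusted p = 0.0756). By their brightest probe sets, 11.3% of all expressed genes did not overlap. Sdc3 had M = -0.34 with a standard error of 0.35. Sdc2 had M = 0.08 with a standard error of 0.24 on its brightest probe set, whereas 1448545_at read 8.29, 8.51 and 8.32 on disomic and 8.65, 8.68 and 8.76 on Ts1Cje arrays. On that probe set all Ts1Cje arrays were higher, and M = 0.33 with a standard error of 0.07 passed the limit (limma t = 4.47, unadjusted p = 0.00919, adjusted p = 1).

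**Figure D4:**
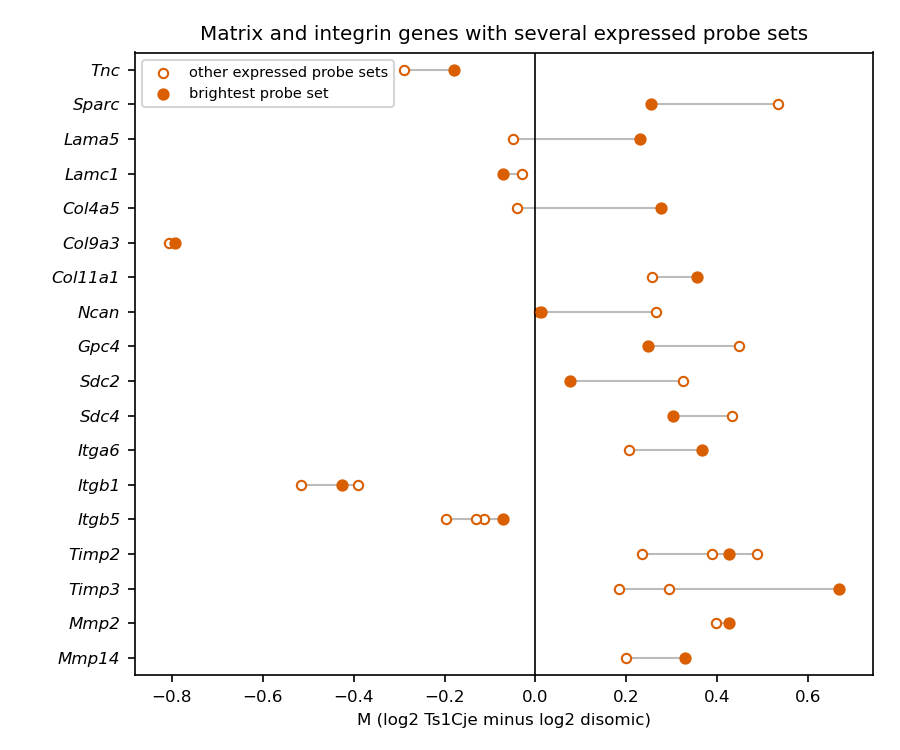
M (horizontal axis, log2 Ts1Cje minus log2 disomic) of each expressed probe set for the 18 matrix and integrin genes with several, the brightest filled and the others open, joined by a line within a gene. The sign is shared within 16 of the 18 genes, Lama5 and Col4a5 being the exceptions.

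All 3 expressed integrin alpha chains had M above 0 and both expressed beta chains had M below 0, none of them past the limit. Of all expressed genes, 53.9% had M above 0. Of the beta chains, only Itgb1 kept its sign whichever single array was left out. Itgav, the alpha V chain of receptors for RGD-bearing ligands, read 12.07, 12.05 and 12.24 on disomic and 12.27, 12.22 and 12.29 on Ts1Cje arrays. Ts1Cje array 2 lay just under disomic array 3, and M was 0.14 with a standard error of 0.06. Itga6, the alpha 6 chain of laminin receptors and a marker used to enrich neural stem cells, had M = 0.37 with a standard error of 0.22. Its second probe set, 1422445_at, gave M = 0.21 with a standard error of 0.07 and no overlap (limma t = 3.12, unadjusted p = 0.0317). Of all expressed genes, by their brightest probe sets, 6.61% had an unadjusted limma p under 0.05 and 11.3% did not overlap. Without disomic array 3, Itga6 and Itgav passed a moderated t of 4 with M of 0.57 and 0.20, in a fit where 3.83% of all expressed genes passed. Itga7, another laminin-binding alpha chain, had M = 0.50 with a standard error of 0.40, and 0.21 without disomic array 2, when Itga6 had 0.20.

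Itgb1 encodes the beta 1 chain, the partner of most alpha chains. It read 10.74, 11.04 and 10.70 on disomic and 10.53, 10.63 and 10.04 on Ts1Cje arrays. Every Ts1Cje array was lower, Ts1Cje array 3 by the most. M was -0.43 with a standard error of 0.20 and an interval from -0.97 to 0.12 (limma, unadjusted p = 0.0981), and -0.25 without Ts1Cje array 3. Its other probe sets gave M of -0.52 and -0.39, with Ts1Cje array 3 again the lowest on each but with overlap between the groups. Itgb5, a partner of alpha V, had M = -0.07 with a standard error of 0.31 and values from -0.20 to -0.07 over its 4 probe sets, and its sign turned when single arrays were left out. The promoter window of Itgb1, chr8:128685404-128685703 on the plus strand (RefSeq, GRCm38.p6), is shown because Itgb1 was the widely shared receptor chain among the genes without overlap. It has 27 CpG dinucleotides and 1 GGGCGG match, in capitals.
Itgb1: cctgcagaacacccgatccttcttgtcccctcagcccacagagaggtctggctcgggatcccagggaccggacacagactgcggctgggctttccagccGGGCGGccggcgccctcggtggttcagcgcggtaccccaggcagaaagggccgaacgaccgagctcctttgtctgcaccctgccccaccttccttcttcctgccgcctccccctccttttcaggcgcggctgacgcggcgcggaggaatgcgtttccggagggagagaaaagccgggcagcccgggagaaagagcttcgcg

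The collagen-binding chains Itga1 and Itga2 were not expressed, with A = 2.33 and A = 2.31. Nor were Itga3 (A = 2.55), a laminin-binding chain, the fibronectin receptor chain Itga5 (A = 2.40), and Itgb4 (A = 2.23), the hemidesmosome chain that pairs with alpha 6. Of the expressed chains, alpha 6 and alpha 7 pair with beta 1, and alpha V with beta 1, beta 5 and beta 8. Itgb8, which is outside the 50 and was named after its values were seen, was expressed too, with 11.05, 12.02 and 12.11 on disomic and 11.46, 11.17 and 10.61 on Ts1Cje arrays. The groups overlapped, and M was -0.64 with a standard error of 0.41 (limma, unadjusted p = 0.183).

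The Timps, inhibitors of metalloproteinases, had the highest median M of the role groups, 0.47 over 3 expressed genes, and all 3 were above 0. Timp2 read 9.35, 9.52 and 9.60 on disomic and 9.77, 10.43 and 9.54 on Ts1Cje arrays. Ts1Cje array 3 lay within the disomic range and Ts1Cje array 2 far above it. M was 0.43 with a standard error of 0.27, and 0.24 to 0.49 over its 4 expressed probe sets, but 0.17 without Ts1Cje array 2 on the brightest. Of the dimmer ones, 1433662_s_at and 1460287_at had unadjusted p of 0.0452 and 0.0364 (limma), the latter without overlap, and neither passed the limit. By their brightest probe sets, 6.61% of all expressed genes had an unadjusted p under 0.05 in limma, and 11.3% did not overlap. The same shares over all expressed probe sets are not given here, and these dimmer ones were named after their values were seen. Timp3 had M = 0.67 with a standard error of 0.42 and Timp4 M = 0.47 with a standard error of 0.29. Disomic array 1 was the lowest for both, and without it M was 0.33 for Timp3 and 0.20 for Timp4, while Timp3 reached 1.01 without disomic array 3. Timp1 was not expressed (A = 2.99).

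The 3 measured matrix proteases of the gene list also had M above 0. Mmp14, a membrane-type metalloproteinase that activates the Mmp2 proenzyme together with Timp2, read 10.24, 9.53 and 10.21 on disomic and 10.12, 10.05 and 10.79 on Ts1Cje arrays. Disomic array 2 was the lowest and Ts1Cje array 3 the highest, while the other arrays were mixed, with M = 0.33 and a standard error of 0.32. M was 0.092 without Ts1Cje array 3 and 0.097 without disomic array 2. Mmp2, a gelatinase, had M = 0.43 with a standard error of 0.28 and 0.40 on its other probe set, and it passed a moderated t of 4 without Ts1Cje array 1 (M = 0.70), in a fit where 5.03% of all expressed genes passed. Adamts1, a protease that cuts versican, had M = 0.19 with a standard error of 0.22, and 0.054 without Ts1Cje array 1. All 3 measured proteases of the gene list and all 3 expressed Timps thus had M above 0, where 53.9% of all expressed genes did. None of these proteases and Timps passed the limit with all arrays. Among other matrix proteases, with their inhibitors and the enzymes that modify collagen, 6 of 19 expressed genes had M above 0 and 13 below it. An M above 0 was therefore not shared by most genes of that list.

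**Figure D5:**
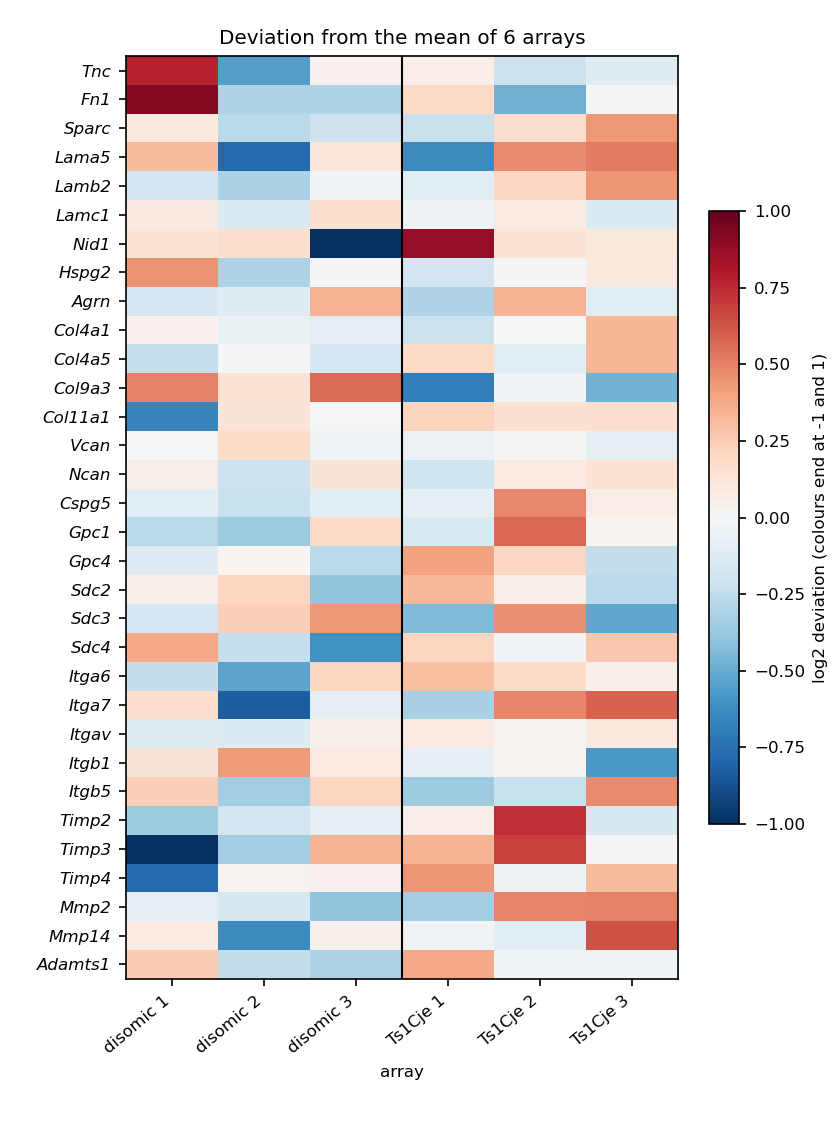
Deviation of the log2 signal from the mean of each gene (colour, ending at 1 in either direction) for the 32 expressed matrix and integrin genes (rows) on the 3 disomic and 3 Ts1Cje arrays (columns). Disomic array 2 is the lowest array for 13 genes and Ts1Cje array 3 the highest for 11, while no array stands at one extreme throughout.

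Genes of the same pathway outside the 50 gave a background of their own. Of 125 measured genes for other matrix proteins, other matrix receptors, integrin adaptors and kinases, and other matrix proteases, 60 were expressed, with a median M of 0.02 and 32 above 0, and none passed a moderated t of 4 in limma. By that fit 2 of the 60 (3.33%) had an unadjusted p under 0.05, against 6.61% of all expressed genes. By list, the median M was 0.06 over 15 other matrix proteins, 0.05 over 8 receptors, 0.11 over 18 adaptors and kinases and -0.05 over the 19 of the protease list. The groups did not overlap for 5 of the 60 (8.33%), where 11.3% of all expressed genes did not overlap. These 5 are named here after their values were seen. Ddr2, a receptor tyrosine kinase for collagen, had M = 0.73 with a standard error of 0.19 (limma t = 3.91, unadjusted p = 0.0149, adjusted p = 1). It passed a t of 4 with cyclic loess, with array weights, with an intensity trend in the prior and without Ts1Cje array 3. In those fits 1.85%, 2.12%, 1.71% and 2.51% of all expressed genes passed. Ptprz1, a receptor phosphatase that is also a chondroitin sulphate proteoglycan, had M = 0.25, and Zyx, zyxin of focal adhesions, M = 0.27. Fbln1, fibulin 1, had M = -0.33 and Adam19, a membrane protease, M = -0.40.

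Markers of cell types that a culture may hold were measured beside the matrix genes. Among 8 endothelial and mural markers only Acta2 was expressed, and the other 7 had A of at most 2.68. Their mean signal ranged from 2.93 to 3.03 on disomic and from 2.82 to 3.15 on Ts1Cje arrays. Of 6 fibroblast and meningeal markers only Pdgfra was expressed, which oligodendrocyte progenitors also express, with list means of 3.31 to 4.14 on disomic and 2.89 to 3.96 on Ts1Cje arrays. Dcn and Col3a1 of that list lay below the limit by their means but above the floor on most arrays. Dcn read 5.25, 4.54 and 2.47 on disomic and 4.59, 4.72 and 2.95 on Ts1Cje arrays. Col3a1 read 4.38, 4.99 and 2.47 on disomic and 4.97, 3.89 and 2.23 on Ts1Cje arrays. None of 8 microglial, 5 neuroblast or 4 ependymal markers was expressed. Of 8 neural stem cell and astrocyte markers, 7 were expressed, with list means from 11.15 to 11.25 on disomic and from 10.97 to 11.57 on Ts1Cje arrays, and Gfap had A = 4.87. Gfap, which the list means include, varied widely within both genotypes. It read 5.42, 5.72 and 3.61 on disomic and 2.37, 5.75 and 6.36 on Ts1Cje arrays, so that single arrays passed a log2 signal of 5. Of 5 measured oligodendrocyte markers 4 were expressed, with means of 8.21 to 8.52 on disomic and 7.90 to 8.56 on Ts1Cje arrays. The group ranges overlapped for every one of these lists. Of the 7 expressed stem cell and astrocyte markers, 1 (14.3%) did not overlap, against 11.3% of all expressed genes. It was the astrocytic water channel gene Aqp4, higher on every Ts1Cje array, with M = 0.81 and a standard error of 0.23 (limma, unadjusted p = 0.0224, adjusted p = 1). The other expressed markers of that list had M from -0.19 (Prom1) to 0.14 (Slc1a3). The part of Aqp4 in the values above was not tested.

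The promoter windows of the genes varied widely, from 1 CpG dinucleotide in Lama2 to 44 in Sdc3 and from 44.0% GC in Lamb2 to 83.3% in Agrn. A window was matched in RefSeq (GRCm38.p6) for 36 of the 50 genes. The hexamer GGGCGG, read on both strands, occurred in 29 of them (80.6%), against 35.9% of the windows of 27025 genes, and the median number of CpG dinucleotides was 18 against 7. CCAAT occurred in 11 (30.6%) against 37.9%, and TATAAA in 3 (8.33%) against 14.2%. The 27025 genes were not limited to those measured on these arrays, and no share over all measured or all expressed genes was computed. Among expressed genes with a window, GGGCGG occurred in 20 of 23, and among those measured but not expressed in 8 of 12, with median CpG counts of 20 and 12.5. A match describes letters in the window and no more. The Col11a1 window, chr3:114030290-114030589 on the plus strand, is shown as that of a gene higher on all Ts1Cje arrays, with 9 CpG dinucleotides, 2 GGGCGG matches and 1 CCAAT match, the last read on the other strand as ATTGG.
Col11a1: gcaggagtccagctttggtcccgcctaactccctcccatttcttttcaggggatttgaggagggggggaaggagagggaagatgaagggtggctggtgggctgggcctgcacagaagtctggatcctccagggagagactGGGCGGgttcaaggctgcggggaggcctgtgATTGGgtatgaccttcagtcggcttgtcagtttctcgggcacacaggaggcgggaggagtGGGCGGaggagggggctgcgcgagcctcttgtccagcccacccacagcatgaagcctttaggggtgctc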

How the data were processed

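Gene expression was measured in 3 Ts1Cje and 3 disomic neurosphere cultures on Affymetrix mouse arrays. The authors processed the arrays with GCRMA, which corrects background by probe base composition, normalizes between arrays and gives 1 value per probe set, and deposited log2 values (version not given in the sources used here). This correction pulls dim probe sets to a common floor, and for 29.7% of probe sets no array differs from the others. Precision is limited by the number of arrays, and p-values measure the spread between these cultures.

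Genotype was the only factor of the linear model, which limma 3.58.1 (R 4.3.3) fitted to 45037 probe sets, leaving out 64 controls. Tests were two-sided, with Benjamini-Hochberg adjustment over all of them. The prior degrees of freedom were 0.336. The limits of A above 5 and a moderated t of 4 follow the study's methods. Genes were named by the 34945 probe sets with a single symbol, and the brightest represents its gene. The steps were tested on simulated data. Promoter windows came from RefSeq tables (GRCm38.p6), taking the first window listed for a gene, and 14 of the 50 genes had no match. Tables and figures were made with Python 3.11.15, pandas 2.3.3 and matplotlib 3.10.9.

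The 50 genes, the role groups and the other lists were chosen with earlier results of these data known. Values of every array are given for expressed genes past a moderated t of 4 or without overlap between the groups, and for the brightest gene of each role group. Dimmer probe sets past the limit are shown in addition, as are Col6a1, Tnr, Itgb8, the second expressed probe set of Col9a3 and the markers Gfap, Dcn and Col3a1. Dimmer probe sets of Itga6, Gpc4 and Timp2 are named without having passed the limit. All of these were chosen after their values were seen. The alternatives tried were a replicate block, the omission of single arrays, cyclic loess, array weights, an intensity trend in the prior, other expression levels and the mean of a gene's probe sets. The alternatives for the pathway lists outside the 50 were added after seeing the data.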

Additional observations from a re-analysis of the deposited data

How the results depend on the processing

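The count of 0 genes past a moderated t of 4 lay between 0 and 2 with single arrays left out (Itga6 and Itgav without disomic array 3, Mmp2 without Ts1Cje array 1, Col4a5 and Col9a3 without Ts1Cje array 2), and was 2 with the mean of expressed probe sets (Sparc and Col9a3). Of all expressed genes, 2.51% to 5.03% passed in the former fits and 1.79% in the latter. The 4 genes without overlap became 6 to 10 with single arrays left out, where 18.1% to 26.4% of all expressed genes did not overlap, because fewer arrays are compared. The median M of 0.24 lay between 0.15 and 0.22 without single arrays and was 0.075 with no expression level, which adds the genes at the floor. The 32 expressed genes became 34 with a level of 4, 31 with a level of 6 and 25 with the mean of all probe sets of a gene. Of all 18193 genes, 9677 were expressed with a level of 4 and 8021 with a level of 6. No such count over all genes is given here for the mean of all probe sets. In the pathway lists outside the 50, the count of 0 became 1 with cyclic loess, 1 with array weights and 1 with an intensity trend in the prior (Ddr2 each time), and 0 to 2 without single arrays. In the fits that Ddr2 passed with all arrays, 1.71% to 2.12% of all expressed genes passed, and without single arrays 2.51% to 5.03% did. No matrix or integrin gene had an adjusted p under 0.05 in limma under any of these settings. With single arrays left out, 17 of 192 values of M, from 9 genes, turned sign without having been called, and 5 were newly past the limit. The cause of these shifts was not tested.

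With the replicate block, 1 matrix gene (Adamts1) and 1 gene of the other lists (Adamts4) passed a moderated t of 4, but so did 6.54% of all expressed genes, against 1.82% without the block. The design names littermate pairs, but no label ties a number to a litter. The samples were treated as unpaired for this reason. The deviations of arrays with the same number correlated at -0.17, -0.02 and 0.11. Over all matchings of a disomic with a Ts1Cje array they ran from -0.39 (disomic 2 with Ts1Cje 3) to 0.40 (disomic 2 with Ts1Cje 1). As the numbers may not mark litters, these values cannot show whether the cultures were paired.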
